A study of Drosophila melanogaster with 12 samples.

Results

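Cytochrome P450 enzymes (Cyp genes) and UDP-glycosyltransferases (Ugt genes) were followed as RNA in early Drosophila melanogaster embryos. Members were all genes of the count table whose symbol begins with Cyp or Ugt followed by a family number, and in the case of Cyp by a subfamily letter. That gave 120 of 17868 genes, of which 85 were P450 genes, 2 of them annotated as pseudogenes, and 35 were Ugt genes. P450 enzymes that carry older names, such as most ecdysone-producing enzymes, fall outside that definition and are given separately.

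The series compared 4 genotypes with 3 biological replicates each, labelled Control, Drp1SG, SOD2i and Drp1SG;SOD2i, the last called the double genotype here. Drp1 divides mitochondria, and Sod2 removes superoxide inside them. The labels give no allele, driver or line for any genotype and do not explain the letters SG, and SOD2i is read here as interference with Sod2. Each replicate was RNA of 70 to 100 embryos pooled from several collections at 28 °C and sorted by hand to equal parts cellularizing and gastrulating. Genotypes with enough eggs were collected for 1 h and aged for 1.5 to 2 h, and those with too few over a single window of 2.5 to 3 h. The labels do not say which genotypes had which, so embryo age, collection window, line background and genotype cannot be told apart. With whole embryos, fewer cells of a type and less RNA per cell cannot be told apart either. With both stages pooled in every library, RNA loaded by the mother and RNA made by the embryo cannot be told apart for any member.

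P450 enzymes are haem proteins that insert an oxygen atom into lipids, hormones and foreign compounds. Those in the endoplasmic reticulum take electrons from the reductase Cpr, and those in mitochondria from ferredoxins. Insect P450 genes fall into the CYP2, CYP3, CYP4 and mitochondrial clans, and the CYP3 clan, which holds the Cyp6, Cyp9 and Cyp28 genes, is known for insecticide resistance. Ugt enzymes attach a sugar from a UDP-sugar to small lipophilic molecules and so make them water-soluble. In older flies both families are best known from gut, fat body, Malpighian tubule and antenna.

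Libraries held 61757756 to 91949037 reads in genes, so that 3 reads corresponded to 0.0314 to 0.0499 CPM (counts scaled to library size), an allowance for counting error only. Sod2, the gene named in the SOD2i label, was at 50.6, 50.3 and 51.6 CPM in Control and 53.5, 46.7 and 48.3 CPM in Drp1SG. It was at 1.76, 2.34 and 1.38 CPM in SOD2i and 2.51, 3.54 and 3.08 CPM in the double genotype, so every library carrying the SOD2i label had low Sod2 RNA. Drp1 was at 35.1, 34.2 and 38.8 CPM in Control, 71, 104 and 77.1 CPM in Drp1SG, 24.1, 23.5 and 18.6 CPM in SOD2i and 43.8, 42.9 and 44.2 CPM in the double genotype. Stage markers differed between genotypes. Summed CPM of 8 detected genes of a 12-gene list for the cellularizing and gastrulating embryo was 1580 to 2850 in Control, 1410 to 1690 in Drp1SG, 2680 to 2810 in SOD2i and 1940 to 2440 in the double genotype. Most of it was slam, with means of 1330, 977, 1890 and 1520 CPM in that order, called in 0 of the 6 contrasts by edgeR. The sum therefore does not measure the share of gastrulating embryos. Of these 8, 3 were lower in Drp1SG than in Control (ftz, sna and tll) and 1 was lower in the double genotype than in Control (ftz) by edgeR. Against SOD2i, 4 were lower in the double genotype (eve, ftz, tll and twi). Over all tested genes 8.83%, 4.29% and 8.79% were lower in these contrasts, in that order. The part of the stage markers in the members' differences was not tested.

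Of the 120 members, 99 had at least 1 read and 54 had reads in all 12 libraries. The filter on low counts left 55 members to test, 37 P450 and 18 Ugt genes, of which 38 reached the filter level of 0.145 CPM in every library and 0 reached it only in the 3 libraries of 1 genotype. A further 44 members had between 1 and 90 reads over all libraries together and were not tested. A mean of at least 1 CPM in some genotype was reached by 35 members, and at least 5 CPM by 13, 8 P450 and 5 Ugt genes. By clan, tested members numbered 3 of 4 in CYP2, 23 of 40 in CYP3, 6 of 32 in CYP4 and 5 of 9 in the mitochondrial clan. All 35 Ugt genes had a read.

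The remaining 21 members, all P450 genes, were listed at 0 in every library, and 20 of them lie for at least 97% of their span inside another annotated gene. Across the whole table, 1924 of 1930 protein-coding genes lying at least 99% inside another gene (99.7%) were listed at 0, against 472 of 11433 others (4.13%). Among nested genes that share no exon base with an exon of another gene, all 1189 were at 0. Well-known embryonic genes such as Kr, nullo and bnk were among the genes at 0. The members concerned are Cyp4g1, the oenocyte enzyme that makes cuticular hydrocarbons, Cyp6a2, Cyp6d5, Cyp6t1, Cyp9c1, Cyp9f3, Cyp49a1, Cyp304a1, Cyp308a1, Cyp310a1, Cyp313a1, Cyp4d2, Cyp4d14, Cyp4d20, Cyp4ac1 to Cyp4ac3 and Cyp4p1 to Cyp4p3. A value of 0 for these 20 genes cannot be read as absence of RNA. Cyp316a1, which overlaps no other gene, was the exception. For its count of 0, the allowance of 3 reads corresponds to 0.0314 to 0.0499 CPM per library. That allowance would be larger if mates of a pair were counted separately.

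**Figure D1:**
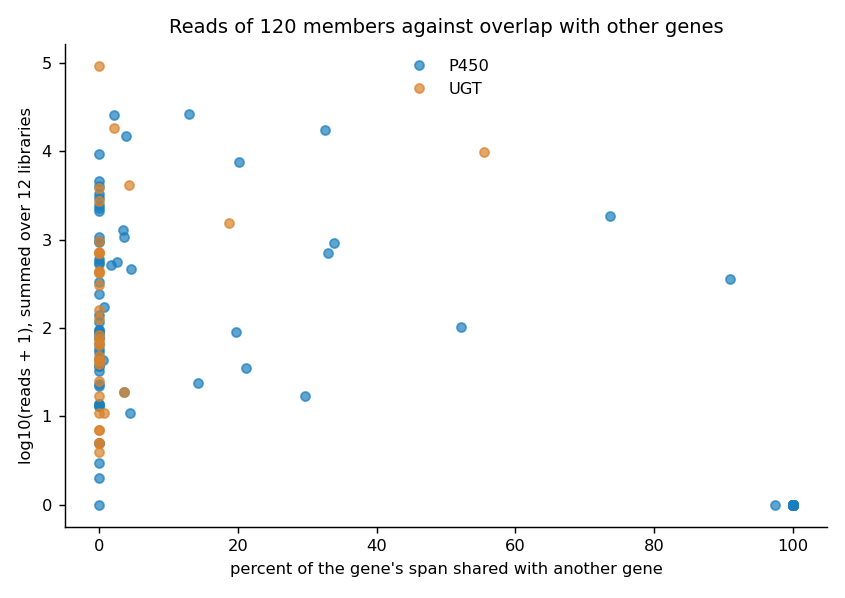
Reads of each of the 120 members summed over 12 libraries, as log10(reads + 1), against the percent of the gene's span that is shared with another annotated gene. The 20 members at the right edge, at least 97% shared, all stand at 0 reads, and members under 95% shared run from 0 reads (Cyp316a1) upward.

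Ugt316A1 was the most abundant member. It was at 115, 99.9 and 95.5 CPM in Control, 108, 117 and 116 in Drp1SG, 113, 89.7 and 112 in SOD2i and 116, 99.3 and 118 in the double genotype. The 4 genotypes overlapped, no comparison was called, and its log2 fold change against Control was 0.14 ± 0.11 in Drp1SG and 0.02 ± 0.11 in SOD2i. Ugt316A1 made up 55.4% to 79.2% of all Ugt reads in a library. Levels of different genes were compared as CPM per kb of exon that no other gene shares, and on that scale Ugt316A1 averaged 34.4 over all libraries.

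Next on the per-kb scale came Cyp6a22 at 14.4, Cyp6v1 at 12.4, Ugt36E1 at 11.7, Cyp6u1 at 10.4 and Cyp4e2 at 9.19. Cyp6a19 (5.2), Cyp4d1 (4.84), Ugt50B3 (3.49) and Ugt49B1 (2.89) completed the 10 highest. The spread within genotypes was wide for Cyp6a22, Cyp6v1 and Cyp4e2, which overlapped one another, and narrow for Cyp6u1, at 15.9 to 24 CPM in all 12 libraries. Of these 10 genes, Ugt316A1, Cyp6a22, Cyp6v1, Cyp6u1, Cyp4e2 and Ugt50B3 were called in 0 of the 6 contrasts by edgeR (adjusted p of at least 0.0735) and in 0 of the 3 comparisons of the authors' deposited tables. At an unadjusted p under 0.05 only Ugt50B3 passed among these 6 genes, in 2 contrasts. The other 4, Ugt36E1, Cyp6a19, Cyp4d1 and Ugt49B1, were each called in at least 2 contrasts.

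**Figure D2:**
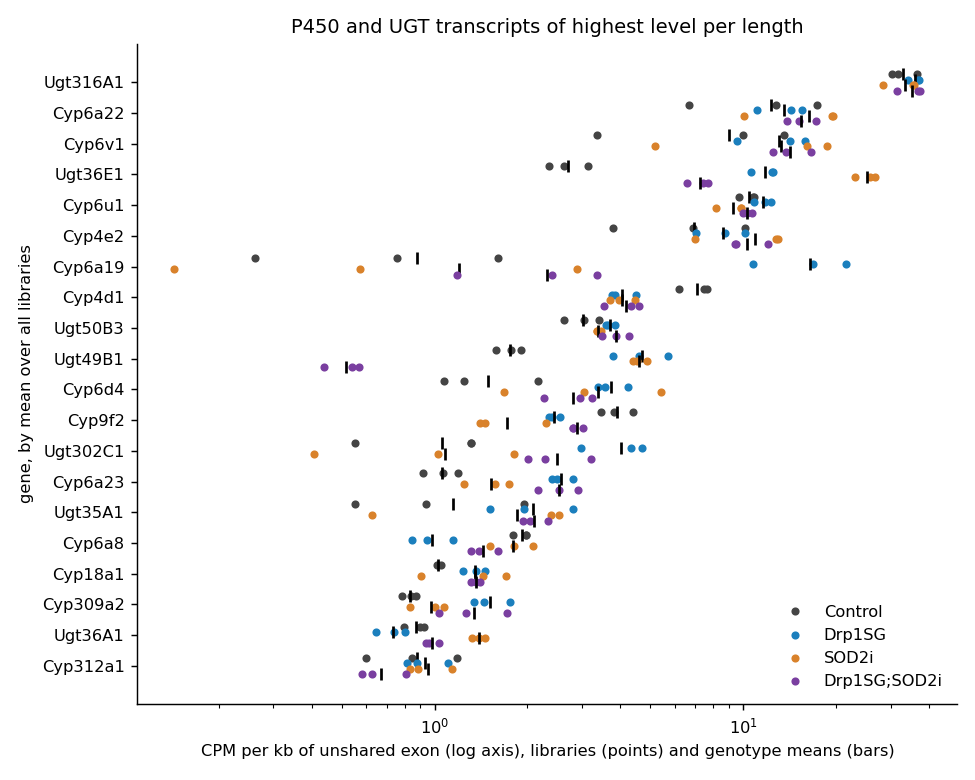
CPM per kb of unshared exon (log axis) of the 20 members of highest mean level, with a point for each library and a bar for each genotype mean, n = 3. Ugt316A1 stands at the top in every genotype, and Ugt36E1 takes a separate level in each. Cyp6a19 stands apart in Drp1SG only. Ugt49B1 separates Control and the double genotype from each other and from Drp1SG and SOD2i, which overlap.

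Summed over all members, P450 RNA was 140 ± 31.3 CPM in Control and 169 ± 9.83 in the double genotype (SD, n = 3). Drp1SG had 176 ± 22.6 and SOD2i 157 ± 37.1 CPM, so the genotypes overlapped. Summed over all members, Ugt RNA was 133 ± 12.9 CPM in Control and 156 ± 12.1 in the double genotype, which overlapped (up to 147 and from 142 CPM). Drp1SG had 178 ± 5.53 and SOD2i 184 ± 18.8 CPM. Without the most abundant member, Ugt316A1, the sum was 28.9 ± 2.86 CPM in Control and 44.7 ± 1.69 in the double genotype. On that count Drp1SG had 63.6 ± 1.09 and SOD2i 78.7 ± 5.59 CPM. These sums are a description and were not tested. Of the Ugt sums, Ugt36E1 alone made up 5.02 CPM in Control, 13.4 in the double genotype, 22 in Drp1SG and 46.7 in SOD2i.

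Drp1SG was compared with Control, which asks what differs in that genotype on a normal Sod2 background. Of 55 tested members, 21 passed an adjusted p of 0.05 (Benjamini-Hochberg, edgeR's quasi-likelihood test) and are named called here, 12 higher and 9 lower, or 38.2% where 18.6% of all 9863 tested genes were called (9.72% higher and 8.83% lower). Of 37 P450 genes 6 were higher and 8 lower, and of 18 Ugt genes 6 were higher and 1 lower. The median log2 fold change was 0.25 over tested members and 0.007 over all tested genes. In the same comparison 7 of 18 tested unstable maternal genes were higher, and 3 of 8 stage markers lower.

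SOD2i against Control gave 18 called members, 9 higher and 9 lower, or 32.7% beside 23.2% of all tested genes (10.3% higher and 12.8% lower). Of P450 genes 5 were higher and 7 lower, and of Ugt genes 4 were higher and 2 lower. The double genotype against Control gave 10, of which 6 were higher and 4 lower, or 18.2% beside 8.91% of all tested genes (4.62% and 4.29%). That last count was 5 without Control replicate 2 and 6 without replicate 1 or replicate 3 of the double genotype. All 3 comparisons use the same Control libraries. The authors' deposited tables gave an adjusted p under 0.05 to 23, 16 and 14 members for Drp1SG, SOD2i and the double genotype, of which 21, 16 and 10 were also called here.

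Against the single genotypes, the double genotype had 11 called members beside Drp1SG, 6 higher and 5 lower (20%, where 10.9% of all tested genes were called, 5.05% higher and 5.82% lower). It had 16 beside SOD2i, 11 higher and 5 lower (29.1%, where 19.3% of all tested genes were called, 10.5% higher and 8.79% lower). The interaction contrast asks whether the Drp1SG difference is the same with SOD2i (the double genotype against SOD2i) as without it (Drp1SG against Control). It was called for 16 members, 10 positive and 6 negative, or 29.1% beside 16.5% of all tested genes (9.2% positive and 7.34% negative). The interaction compares groups that share no library.

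**Figure D3:**
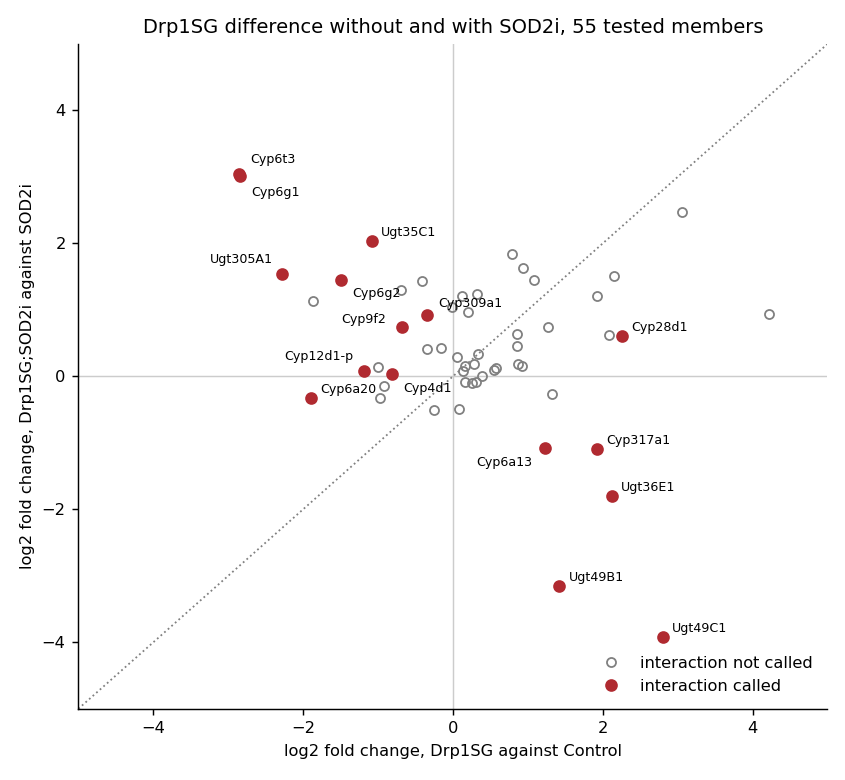
Log2 fold change of Drp1SG against Control (x axis) and of the double genotype against SOD2i (y axis) for the 55 tested members, with filled points where the interaction was called and the dotted line where both differences are equal. Cyp6g1 and Cyp6t3 stand at the upper left and Ugt36E1, Ugt49B1 and Ugt49C1 at the lower right, so that their Drp1SG difference has opposite signs on the 2 backgrounds.

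Of the 120 members, 70 lie near another member in the RefSeq gene order, with no more than a single other protein-coding gene between them. Cyp6g1, Cyp6g2 and Cyp6t3, which follow each other on chromosome arm 2R, were low in both single genotypes and at the Control level in the double genotype. Cyp6g1 is known for giving resistance to DDT when overexpressed. Its level was 3.01, 2.45 and 3.21 CPM in Control, 0.393, 0.502 and 0.303 in Drp1SG, 0.394, 0.296 and 0.309 in SOD2i and 2.64, 2.95 and 2.54 in the double genotype. Every single-genotype library lay below every Control library, and the double genotype lay within the Control range. Log2 fold changes against Control were -2.84 ± 0.21 in Drp1SG (edgeR adjusted p = 5.96e-06), -3.11 ± 0.22 in SOD2i (2.52e-06) and -0.09 ± 0.19 in the double genotype (0.802). The interaction was 5.86 ± 0.30 (adjusted p = 2.5e-07).

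Cyp6t3 has a reported role in larval ecdysone production. It stood at 2.08, 1.96 and 2.51 CPM in Control, 0.295, 0.303 and 0.303 in Drp1SG, 0.212, 0.281 and 0.393 in SOD2i and 2.09, 2.72 and 2.54 in the double genotype. The groups separated as for Cyp6g1, with an interaction of 5.90 ± 0.32 (edgeR adjusted p = 3.66e-07). Cyp6g2, another enzyme of insecticide metabolism, stood at 0.761, 0.709 and 0.866 CPM in Control, 0.281, 0.345 and 0.193 in Drp1SG, 0.243, 0.203 and 0.491 in SOD2i and 0.722, 1 and 0.853 in the double genotype. It moved the same way and less far, by -1.50 ± 0.34 in Drp1SG and -1.30 ± 0.34 in SOD2i, with an interaction of 2.94 ± 0.48 (adjusted p = 0.00158). Its SOD2i call was lost without Control replicate 3, SOD2i replicate 1 or SOD2i replicate 2 (adjusted p up to 0.0583).

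Ugt49B1 and Ugt49C1, also adjacent on 2R, showed the converse. Ugt49B1 was at 2.95, 2.63 and 3.16 CPM in Control, 9.51, 6.28 and 7.64 in Drp1SG, 8.13, 7.54 and 7.31 in SOD2i and 0.896, 0.73 and 0.946 in the double genotype. Both single genotypes were above Control and the double genotype below it, with no overlap. The log2 fold changes were 1.42 ± 0.16, 1.39 ± 0.16 and -1.76 ± 0.17, each called (edgeR adjusted p up to 0.000159), and the interaction was -4.58 ± 0.24 (adjusted p = 2.84e-07).

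Ugt49C1 was at 0.206, 0.207 and 0.366 CPM in Control, 1.96, 1.58 and 1.91 in Drp1SG, 1.94, 3.28 and 1.46 in SOD2i and 0.116, 0.186 and 0.133 in the double genotype. It rose in both single genotypes, by 2.81 ± 0.34 and 3.10 ± 0.34 on the log2 scale. The double genotype was not called against Control (-0.83 ± 0.41, edgeR adjusted p = 0.247), although its 3 libraries lay below all Control libraries. The interaction of -6.73 ± 0.50 (adjusted p = 4.25e-06) had the largest size of the 16, and rests on 13, 14 and 22 reads in Control and 8, 13 and 10 reads in the double genotype.

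Ugt36E1, which takes part in pheromone discrimination by olfactory neurons of the adult, separated all 4 genotypes. It was at 5.82, 4.89 and 4.36 CPM in Control, 19.7, 23.2 and 23 in Drp1SG, 47.7, 42.6 and 49.7 in SOD2i and 14.3, 12.2 and 13.7 in the double genotype. No library of a genotype overlapped with another genotype. Log2 fold changes against Control were 2.13 ± 0.13, 3.22 ± 0.13 and 1.42 ± 0.12 (edgeR adjusted p up to 3.14e-05). The double genotype lay below both single genotypes, by -0.71 ± 0.12 against Drp1SG and -1.80 ± 0.12 against SOD2i, and the interaction was -3.93 ± 0.18 (adjusted p = 8.47e-08). Of its direct neighbours, Ugt36D1 ranged from 0.236 to 1.25 CPM and was called in 0 of the 6 contrasts by edgeR (lowest unadjusted p = 0.281), and Ugt36F1 had 63 reads in all and was not tested.

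**Figure D4:**
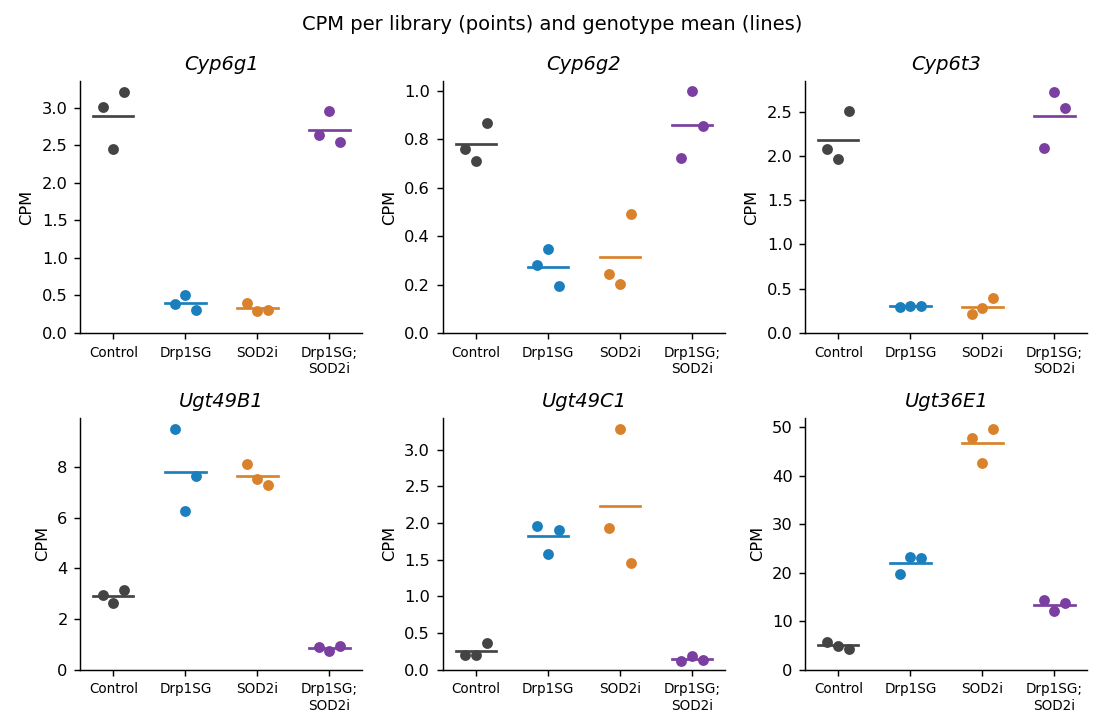
CPM in each library (points) and genotype mean (lines) for Cyp6g1, Cyp6g2, Cyp6t3, Ugt49B1, Ugt49C1 and Ugt36E1, 3 libraries per genotype, with axes from 0. Cyp6g1, Cyp6g2 and Cyp6t3 are low in Drp1SG and SOD2i, Ugt49B1 and Ugt49C1 are high there, and Ugt36E1 takes 4 separate levels.

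The genes around these runs were looked at after the members' values were known. Of the 20 tested non-member genes nearest to the Cyp6g1 run, 3 had a called interaction, Hen1 (1.47), CG30203 (4.55) and CG30046 (-0.95). Of 20 around the Ugt49 genes, 2 had one, CG15657 (1.69) and CG9752 (1.19), and of 20 around Ugt36E1, 1 had one, Irk3 (1.19). These shares are beside 16.5% of all tested genes. In SOD2i against Control, 5 of the 20 around the Cyp6g1 run were lower and 0 higher, beside 12.8% and 10.3% of all tested genes. Hen1 was lower in both Drp1SG (-1.33) and SOD2i (-0.25), as the run was. CG30203 was called lower in SOD2i only (-4.18), and CG30046 was called higher in Drp1SG only (1.12), each of the single genotypes.

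The longest run of adjacent P450 genes, Cyp6a22, Cyp6a17, Cyp6a23, Cyp6a19, Cyp6a9, Cyp6a20, Cyp6a21, Cyp6a8 and Cyp317a1, did not move as a block. In Drp1SG 3 of its 7 tested genes rose and 2 fell, in SOD2i 2 rose, and in the double genotype 1 rose. Over all tested genes the called shares were 18.6%, 23.2% and 8.91% in that order. Cyp6a19 was at 0.396, 2.44 and 1.15 CPM in Control, 16.3, 32.7 and 25.5 in Drp1SG, 4.38, 0.218 and 0.87 in SOD2i and 5.11, 3.64 and 1.79 in the double genotype. Drp1SG stood above all other libraries, a log2 fold change of 4.22 ± 0.89 (edgeR adjusted p = 0.00725), or 5.03 without Control replicate 2. With the level of unstable maternal RNA as a covariate it was 2.31 and was not called (adjusted p = 0.0662).

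Cyp6a20, known for its effect on male aggression, lies in the same run and went the other way. It was at 1.54, 1.73 and 1.9 CPM in Control, 0.449, 0.648 and 0.275 in Drp1SG, 1.17, 1.28 and 1.78 in SOD2i and 1.33, 1.23 and 0.813 in the double genotype. Only Drp1SG lay below Control without overlap among the single genotypes, by -1.89 ± 0.31 (edgeR adjusted p = 0.0016). The interaction was 1.56 ± 0.42 (0.0252) and was lost without any of 6 libraries in turn, among them Control replicates 2 and 3 (up to 0.0649). Cyp6a8, a lauric acid hydroxylase, fell by 0.97 in Drp1SG, from 3.2 to 3.53 CPM in Control to 1.51 to 2.05 CPM.

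Cyp6a23 rose in all 3 genotypes, with log2 fold changes of 1.28 ± 0.17, 0.52 ± 0.17 and 1.26 ± 0.17. The SOD2i value was at the threshold (edgeR adjusted p = 0.0469, and up to 0.158 with 1 library left out). Cyp317a1, at the end of the run, was at 0.301, 0.502 and 0.516 CPM in Control, 1.43, 2 and 1.6 in Drp1SG, 1.43, 1.17 and 1.56 in SOD2i and 0.693, 0.573 and 0.68 in the double genotype. It rose in both single genotypes without overlap, by 1.93 ± 0.24 and 1.65 ± 0.24, and its interaction was -3.02 ± 0.34 (adjusted p = 9.46e-05). Cyp6a17, which affects temperature preference in adults, ranged from 0.383 to 0.955 CPM and was called in 0 of the 6 contrasts by edgeR (lowest unadjusted p = 0.0741). Of 20 tested genes beside the run, 4 had a called interaction, Ciao1 (0.36), Kank (-0.63), aPKC (-0.38) and pcs (-1.68). Among all tested genes 16.5% had one.

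**Figure D5:**
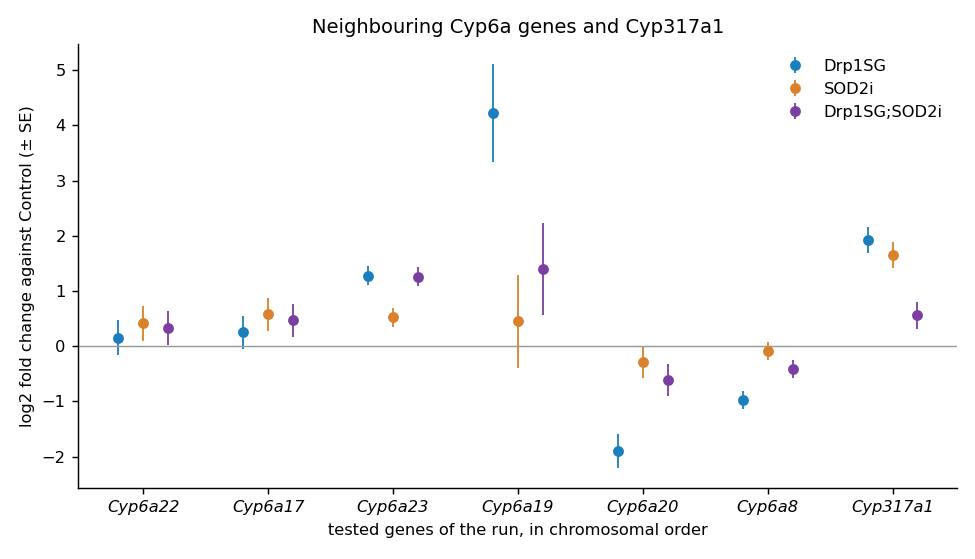
Log2 fold change against Control (± SE) of the 7 tested genes of the Cyp6a run in chromosomal order, for Drp1SG, SOD2i and the double genotype. In Drp1SG, Cyp6a23, Cyp6a19 and Cyp317a1 stand above 0 and Cyp6a20 and Cyp6a8 below it.

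Some members differed from Control in the same direction in all 3 other genotypes. Cyp28d1, which has been linked to nicotine resistance, was at 0.127, 0.207 and 0.133 CPM in Control, 0.715, 0.732 and 0.826 in Drp1SG, 0.546, 0.733 and 0.716 in SOD2i and 1.18, 0.959 and 0.893 in the double genotype. All 9 other libraries lay above Control, with log2 fold changes of 2.26 ± 0.27, 2.08 ± 0.27 and 2.68 ± 0.27. The interaction of -1.66 ± 0.35 (edgeR adjusted p = 0.00768) says that the difference in the double genotype was smaller than the sum of the single ones on the log2 scale. Its neighbour Cyp28d2 was called in the double genotype against Control, at 1.77 ± 0.45, a call lost without any of 4 libraries (adjusted p up to 0.111). The difference of Cyp28d2 between the double genotype and Drp1SG was 1.46 (adjusted p = 0.0504).

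Cyp4d1, of the CYP4 clan, was at 17, 17.5 and 14.2 CPM in Control, 8.77, 10.3 and 8.6 in Drp1SG, 8.46, 10.2 and 9.07 in SOD2i and 8.06, 10.5 and 9.89 in the double genotype. All 3 other genotypes lay below Control without overlap and overlapped one another. Log2 fold changes were -0.81 ± 0.14, -0.81 ± 0.14 and -0.77 ± 0.14, and the interaction was 0.85 ± 0.19 (edgeR adjusted p = 0.0109). Cyp4ae1, also of the CYP4 clan, was lower in SOD2i (-1.56 ± 0.34) and the double genotype (-1.42 ± 0.34). The call in the double genotype was lost without any of 4 libraries (edgeR adjusted p up to 0.0959) and with the replicate block (0.0514). Since 90.9% of its span is shared with another gene, its value rests on 182 bases of exon.

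Ugt305A1 was at 1.19, 1.55 and 0.999 CPM in Control, 0.196, 0.24 and 0.33 in Drp1SG, 0.152, 0.218 and 0.0561 in SOD2i and 0.347, 0.258 and 0.626 in the double genotype. Every other library lay below Control, with log2 fold changes of -2.28 ± 0.42, -3.13 ± 0.46 and -1.59 ± 0.41, and the interaction was 3.82 ± 0.63 (edgeR adjusted p = 0.00173). The call in the double genotype was lost without any of 6 libraries in turn (adjusted p up to 0.126).

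Cyp9f2 was at 6.09, 6.72 and 7.71 CPM in Control, 4.12, 4.22 and 4.49 in Drp1SG, 2.56, 4.04 and 2.47 in SOD2i and 4.95, 5.33 and 4.94 in the double genotype. Its log2 fold change was -1.18 ± 0.18 in SOD2i (edgeR adjusted p = 0.000697) and -0.68 ± 0.18 in Drp1SG (0.0214), and the latter was lost without any of 3 libraries (up to 0.0682) and was -0.28 and not called with the maternal covariate (0.256). Its interaction was 1.42 ± 0.25 (0.00259). Cyp309a1 was lower in SOD2i (-0.92 ± 0.28, edgeR adjusted p = 0.0312), a call lost without any of 4 libraries (up to 0.099). Its interaction of 1.27 ± 0.38 (0.042) was lost without any of 10 libraries.

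Other members were called in Drp1SG. Cyp12d1-p, a mitochondrial-clan enzyme that xenobiotics induce in larvae and adults, was at 3.27, 3.53 and 2.35 CPM in Control and 1.37, 1.24 and 1.39 CPM in Drp1SG, and at 2.58 to 3.15 CPM in the other 6 libraries. The Drp1SG libraries lay below all others, with a log2 fold change against Control of -1.19 ± 0.17 (edgeR adjusted p = 0.00057), with an interaction of 1.28 ± 0.23 (0.00277). Cyp12d1-p has a near-identical neighbour, Cyp12d1-d, and how reads were split between them is not given in the sources used here. Ugt302C1 was at 2.62, 2.61 and 1.1 CPM in Control, 5.93, 8.63 and 9.4 in Drp1SG, 3.61, 0.811 and 2.04 in SOD2i and 6.41, 4.54 and 4 in the double genotype. Its rise of 1.92 ± 0.46 was called in Drp1SG by edgeR (adjusted p = 0.0138). In the double genotype it was 1.24 ± 0.46 and was not called by edgeR (0.118), although the libraries did not overlap with Control. The authors' deposited DESeq2 values did call it there, at 1.24 (adjusted p = 0.00555).

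Cyp6d4 rose by 1.32 ± 0.37 in Drp1SG and 1.18 ± 0.37 in SOD2i, and these calls were lost without any of 5 and of 9 libraries. With the maternal covariate the Drp1SG value was 0.57 (adjusted p = 0.294). Ugt37C2 rose by 0.94 ± 0.28 in Drp1SG (edgeR adjusted p = 0.0387), a call lost without any of 5 libraries. In the double genotype against Control, the authors' deposited DESeq2 values gave 0.92 for Cyp6d4 (adjusted p = 0.0222) and 0.95 for Ugt37C2 (0.0396). Neither was called there by edgeR. Cyp309a2 (0.86 ± 0.20, adjusted p = 0.0117) and Ugt35D1 were named after their values were seen. Ugt35D1 was at 2.86, 0.596 and 0.33 CPM in Drp1SG and 0.0591 to 0.3 CPM in Control, a log2 fold change of 3.06 ± 0.82 (edgeR adjusted p = 0.0236) that was 1.66 and not called without Drp1SG replicate 1. That call was also lost without Control replicate 1 or 2 (up to 0.112 over the 3 libraries), with the replicate block (0.0511) and in a fit of both genotypes alone (0.0677).

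In SOD2i, Cyp6a13 was at 1.83, 1.06 and 4.07 CPM against 0.412, 0.443 and 0.566 CPM in Control. The log2 fold change was 2.29 ± 0.43 (edgeR adjusted p = 0.00262), or 1.62 without SOD2i replicate 3, with an interaction of -2.30 ± 0.59 (0.0199). The interaction was lost without Drp1SG replicate 3 or replicate 1 of the double genotype (up to 0.0529). The rise of Cyp6a13 was not particular to SOD2i in the authors' deposited DESeq2 values. These gave 1.23 in Drp1SG (adjusted p = 0.00224) and 1.23 in the double genotype (0.0129), neither of which was called by edgeR. Ugt36A1 rose from 1.46 to 1.7 CPM in Control to 2.44 to 2.68 CPM in SOD2i (0.68 ± 0.14, adjusted p = 0.00517), with no overlap. Ugt35C1 was at 0.0281 to 0.091 CPM in SOD2i, levels of a few reads, and its interaction of 3.11 ± 0.82 (0.0236) was lost without any of 5 libraries.

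The double genotype was higher than SOD2i for Ugt317A1 (1.84 ± 0.37, edgeR adjusted p = 0.00585), for Ugt37C2 (1.63 ± 0.29, 0.00329) and for Cyp301a1, an enzyme of cuticle formation (1.20 ± 0.32, 0.0226). Ugt317A1 was at 0.491, 0.516 and 0.813 CPM in the double genotype and 0.091, 0.218 and 0.197 CPM in SOD2i, with no overlap. Cyp303a1, needed for sensory bristle development, was higher in the double genotype than in Control (1.00 ± 0.28, adjusted p = 0.0448). That call was lost without any of 7 libraries, and Cyp301a1 lost its call without SOD2i replicate 3 or replicate 3 of the double genotype.

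P450 genes tied to the moulting hormone ecdysone were examined next. Cyp18a1, which inactivates ecdysteroids, was at 3.11, 3.12 and 3.21 CPM in Control, 4.43, 4.15 and 3.77 in Drp1SG, 2.76, 5.21 and 4.39 in SOD2i and 4.29, 4.14 and 4.01 in the double genotype. It was called in 0 of the 6 contrasts by edgeR (lowest unadjusted p = 0.0604) and in 0 of 3 by the authors' deposited tables. Of 8 genes of ecdysone synthesis, among them the P450 genes spo, phm, dib, sad, shd and spok, 1 was higher and 1 lower in Drp1SG, 2 were higher and 1 lower in SOD2i and 1 was lower in the double genotype, each against Control. Over all tested genes the called shares were 18.6%, 23.2% and 8.91%. The double genotype had 1 gene higher (spok) and 4 lower (spo, phm, dib and sro) than SOD2i, where 19.3% of all tested genes were called, and 1 lower (nvd) than Drp1SG, where 10.9% were. Per kb the list ran from shd at 0.306 and spok at 0.655 through nvd at 3.36, sad at 7.64 and sro at 11.8 to dib at 50.4 and spo at 141 CPM per kb, and phm has no per-kb value. In SOD2i spo rose from 278 ± 40.4 to 390 ± 72 CPM and nvd, the first enzyme of the pathway, fell from 7.87 ± 1.13 to 3.61 ± 0.795 CPM. In Drp1SG shd, which makes active 20-hydroxyecdysone, rose from 0.687 ± 0.108 to 1.50 ± 0.328 CPM (1.12 ± 0.36, edgeR adjusted p = 0.0476).

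Of 6 genes that supply P450 enzymes with electrons, 2 were higher than Control in Drp1SG, and SOD2i and the double genotype had 1 each, beside 18.6%, 23.2% and 8.91% of all tested genes. Against SOD2i, the double genotype had higher Fdx1 and Cyt-b5-r, in a comparison where 19.3% of all tested genes were called. The mitochondrial ferredoxin Fdx1 was at 2.06, 1.71 and 1.4 CPM in Control and 4.26, 4.13 and 4.16 CPM in Drp1SG, with no overlap (1.28 ± 0.21, adjusted p = 0.00156). In the double genotype Fdx1 stood 1.14 ± 0.21 above Control (0.00575). Cyt-b5 rose from 75 ± 2.81 to 91.2 ± 2.15 CPM in Drp1SG. Cpr, the reductase shared by all P450 enzymes of the endoplasmic reticulum, was at 220, 178 and 132 CPM in Control and 292, 221 and 289 CPM in SOD2i (0.60 ± 0.16, adjusted p = 0.0194). The highest Control library stood just below the lowest SOD2i library.

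The genes UGP and sgl, which make UDP-glucose and UDP-glucuronate for Ugt enzymes, were called in 0 of the 6 contrasts by edgeR (lowest unadjusted p = 0.138). Of 9 tested regulators of xenobiotic and hormone response, only the nuclear receptor Hr38 was called against Control in these fits, higher in Drp1SG (0.79) and SOD2i (0.80). In those 2 comparisons 18.6% and 23.2% of all tested genes were called, and 8.91% in the double genotype against Control. Hr38 was at 1.76, 1.23 and 1.76 CPM in Control, 3.37, 2.52 and 2.34 in Drp1SG, 2.87, 2.82 and 2.58 in SOD2i and 1.63, 1.88 and 1.43 in the double genotype. Both single genotypes were above Control without overlap and the double genotype was not, with an interaction of -1.54 (edgeR adjusted p = 0.00266). The double genotype had 2 of the 9 regulators lower than Drp1SG and 1 lower than SOD2i, where 5.82% and 8.79% of all tested genes were lower. Among those lower than in Drp1SG was the nuclear receptor Hr96, a sensor of xenobiotics (-0.62, edgeR adjusted p = 0.0249).

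Unstable maternal RNA differed between genotypes and between libraries of a genotype. The mean log2 CPM of 18 tested genes of a 19-gene list was 5.01, 4.91 and 3.93 in Control, 5.42, 5.86 and 5.92 in Drp1SG, 5.55, 3.94 and 5.09 in SOD2i and 5.39, 4.98 and 5.06 in the double genotype. Of the 18 genes, 7 were higher in Drp1SG than in Control, among them dhd at 15.6, 39.4 and 19.9 CPM in Control and 113, 203 and 183 CPM in Drp1SG. In the double genotype 5 were lower than in Drp1SG, and 6 had a negative interaction. Over all tested genes these shares were 9.72% (higher in Drp1SG), 5.82% and 7.34%. In SOD2i 1 gene of the list was higher than in Control, where 10.3% of all tested genes were higher. The double genotype had 1 gene of the list higher and 1 lower than SOD2i, where 10.5% and 8.79% of all tested genes were. In Drp1SG against Control, 7 genes of the list were called higher and 0 lower, while 12 members were called higher and 9 lower. The part of the list in the members' calls was not tested beyond a fit with its mean as a covariate. Control replicate 3 and SOD2i replicate 2 were the lowest. Of the list, 13 genes (72.2%) were lowest of their genotype in both these libraries, as were 10 of 55 tested members (18.2%) and 2029 of all 9863 tested genes (20.6%), so that the members' share was near that of all genes. The values of 3 abundant members show the size of this spread. Cyp6v1 was at 33.5, 24.6 and 8.32 CPM in Control and 39.8, 12.8 and 46 CPM in SOD2i. Cyp6a22 was at 36.6, 27 and 14.1 CPM in Control and 41, 21.2 and 41.3 CPM in SOD2i. Cyp4e2 stood at 19.2, 13 and 7.17 CPM in Control and 24.3, 13.2 and 24.6 CPM in SOD2i. In all 3 genes these libraries were the lowest of their genotype.

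Without Control replicate 3 and SOD2i replicate 2 together, a choice made after seeing the data, 79 of the 92 calls of a member in a contrast held. With the maternal mean as a covariate, 87 of 92 held, among them all those of Cyp6g1, Cyp6g2, Cyp6t3, Ugt36E1, Ugt49B1 and Ugt49C1. Markers of organs where these families are best known were summed as well. In Control, Drp1SG, SOD2i and the double genotype, 10 midgut genes summed to 0.412 to 0.599, 0.303 to 0.407, 0.156 to 0.365 and 0.76 to 2.41 CPM, levels of few reads. In replicate 1 of the double genotype alphaTry, Jon25Bii and Amy-d stood at 0.303, 0.404 and 0.404 CPM, and in its other replicates at 0.0533 CPM or less. Jon25Bi did not follow the sums, with a mean of 0.304 CPM in Control and 0.241 in the double genotype. In the same order of genotypes, 7 Malpighian tubule genes summed to 6.48 to 9.05, 11.7 to 14.3, 7.25 to 9.89 and 9.95 to 12.3 CPM, led by ZnT35C. Fat body and yolk genes, 10 in all, summed to 55.8 to 64.3, 60.2 to 108, 48.3 to 55.1 and 40.3 to 54 CPM, nearly all of it apolpp. Of 5 tested, 2 were higher (Fbp1 and Lsp1gamma) and 1 lower (apolpp) in the double genotype than in Drp1SG. Over all tested genes 5.05% were higher and 5.82% lower there. The midgut list had its highest sums in the double genotype and the tubule and fat body lists in Drp1SG. In Drp1SG ZnT35C was at a mean of 7.88 CPM, against 2.15 in Control, and was the only tubule gene called in that comparison. Irk3 (1.75 against 2.53) and Vha100-4 (0.255 against 0.464) had lower means there. The tubule sums of Drp1SG overlapped with those of the double genotype, and its fat body sums with those of Control. The part of these lists in the members' differences was not tested.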

How the data were processed

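Per the labels, 200 ng of total RNA went into each library, by way of capture on poly(T). Tests used the raw counts of reads per gene that the authors deposited. Their deposited normalized signal is each library's counts multiplied by a constant (relative deviation up to 5.11e-15), and was not tested. The authors also deposited log2 fold changes with p-values and adjusted p-values, from DESeq2 per the labels of those tables. The submitters' processing notes list featureCounts 1.5.2, HISAT2 2.1.0, Bowtie2 2.2.4, Trimmomatic and DESeq2 without saying what each did. Genome build, the strand setting used in counting and the treatment of overlapping genes are not given in the sources used here, so no coordinates are printed, and a member's reads may include those of an overlapping gene. Of 24311 counts between 1 and 10 in the table, 79.3% were even numbers, so mates of a pair may have been counted separately.

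The test was that of edgeR 4.0.16 in R 4.3.3. Genes passed filterByExpr, libraries were scaled by TMM, and a quasi-likelihood model with 1 mean per genotype was fitted to all 12 libraries and 9863 genes, with Benjamini-Hochberg adjustment over all of them. Values are CPM on TMM-scaled library sizes, ± SD between replicates, and log2 fold changes carry ± their standard error. The procedure was tested on simulated data. Reads carry no molecular identifiers, so floors cover counting error only. Exon length not shared with another gene came from Ensembl release 115 annotation of BDGP6, used in place of the coding length first planned, and all 120 members matched it by symbol. Gene order came from RefSeq Release 6.

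Members and lists were chosen with earlier results of these data known. Named members were those called in at least 1 contrast, up to 15 per contrast by adjusted p, the 10 highest per kb, those with a mean of at least 5 CPM in a genotype, and those in the same run. From the partner lists up to 4 genes each were eligible. Alternatives were DESeq2 1.42.0 size factors and Wald test, upper-quartile scaling, no filter or 1 CPM in 3 libraries, a replicate block, fits restricted to the compared genotypes, a maternal RNA covariate, leaving out libraries and, added later, halved counts.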

Additional observations from a re-analysis of the deposited data

Results flagged for a closer look

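Of 55 tested members, 16 were picked out because the Drp1SG difference with SOD2i (the double genotype against SOD2i) differed from that without it (Drp1SG against Control) in the interaction test of edgeR, at an adjusted p under 0.05 over all 9863 genes. All values that follow are the first difference minus the second, on the log2 scale. Positive values were 5.90 for Cyp6t3, 5.86 for Cyp6g1, 3.82 for Ugt305A1, 3.11 for Ugt35C1, 2.94 for Cyp6g2, 1.56 for Cyp6a20, 1.42 for Cyp9f2, 1.28 for Cyp12d1-p, 1.27 for Cyp309a1 and 0.85 for Cyp4d1. Negative values were -6.73 for Ugt49C1, -4.58 for Ugt49B1, -3.93 for Ugt36E1, -3.02 for Cyp317a1, -2.30 for Cyp6a13 and -1.66 for Cyp28d1. Among all tested genes 16.5% passed the same test. Without 1 library or another in turn, the calls of Cyp309a1, Cyp6a20, Ugt35C1 and Cyp6a13 were lost, and the other 12 held. Cyp309a1 was also not called with the maternal covariate (1.19, adjusted p = 0.0611).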

How the results depend on the processing

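Of 92 calls of a member in a contrast, 0 reversed direction under any alternative run. The DESeq2 Wald test kept 92 of 92, its size factors 91, the maternal covariate 87, upper-quartile scaling 86 and no filter 88, and of 76 calls open to a fit of only the groups compared 65 held. Replicate numbers did not pair the libraries: same-numbered libraries deviated together with r from -0.267 to 0.216 in 18 pairs. With the replicate block 79 of 92 calls held, and the members called in the double genotype against Control fell from 10 to 5, and to 6 with the filter of 1 CPM. Over all genes, a fit of only the groups compared gave 1263 calls for SOD2i against Control and 1848 for the double genotype against Drp1SG. The maternal covariate gave 2533 for the latter and 2723 for the interaction. Upper-quartile scaling moved the split of all genes from 959 higher and 871 lower to 760 and 1010 in Drp1SG, from 1019 and 1267 to 632 and 1435 in SOD2i, from 1036 and 867 to 1059 and 566 for the double genotype against SOD2i, and from 907 and 724 to 1013 and 465 for the interaction. The cause of these shifts was not tested. With libraries left out, calls over all genes ran from 1112 (without Drp1SG replicate 2) to 2200 for Drp1SG against Control, 1587 to 2369 for SOD2i, 467 to 1110 for the double genotype, 571 to 1624 for the double genotype against Drp1SG, 1199 to 2112 against SOD2i and 1250 to 1711 for the interaction. Calls of members in the same order ran from 17 to 23, 13 to 17, 5 to 13, 8 to 12, 11 to 19 and 12 to 20. Where that left 2 libraries in a genotype, the spread was pooled over all genotypes. Members with few reads limit the precision: 3 reads are up to 0.0499 CPM.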
